A study of Bos taurus with 15 samples.

Results

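The cells described here are T cells of the newborn (NB) bovine intestine, 3090 barcodes among 47981 that lay within the same limits in 6 libraries of duodenum, jejunum, ileum, cecum, colon and rectum. Each was selected on 500 to 4000 detected genes, under 50000 unique molecular identifiers (UMIs, counted RNA molecules), at least 1 UMI of *CD3E*, no UMI of *FOXP3*, fewer than 2 of *DNTT*, *PTCRA*, *CD1B* and *RAG1* detected, and fewer than 2 UMIs over *IL17A*, *IL17F* and *IL22* together. The rule therefore leaves out barcodes with a read of the regulatory T cell factor, thymocyte-like barcodes and those with several interleukin 17 or 22 transcripts, and the levels of these 9 genes are not results. The whole series holds 172405 barcodes in 15 libraries, of which 132361 lay within the limits.

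The study profiled digestive tract tissues of cattle at the NB and adult (AD) stages with droplet single-cell RNA sequencing that counts the 3′ ends of transcripts, to compare cell types between ages. Each NB segment is 1 library, from mucosa stripped of its outer muscle and treated with EDTA, then trypsin, then a dissociation kit. The NB tissues came from 3 calves, but the calf behind each library is not given in the sources used here. The AD duodenum, jejunum, cecum and colon came from 1 lactating Holstein dairy cow, dissociated with other steps. The methods text of the study names a breed for this cow only. No treatment or genotype is named for either stage, and with 1 library per segment no difference between single segments was tested.

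T cells recognise antigen through a receptor whose signals pass through the CD3 chains. Those with CD4 mostly help other immune cells, and those with CD8 mostly kill infected or altered cells. In the gut wall, many T cells sit within the epithelium, carry killing machinery and stay in the tissue, while others in the lamina propria and lymphoid follicles help or restrain responses. Cattle also carry many gamma delta T cells, which use another receptor and often lack CD4 and CD8.

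T cells made up a larger share of the barcodes in the 3 large intestinal libraries than in the 3 small intestinal ones. The rule kept 88 barcodes in the duodenum, 237 in the jejunum and 150 in the ileum, against 683 in the cecum, 734 in the colon and 1198 in the rectum. These were 1.04% (95% exact binomial interval 0.833 to 1.28), 1.81% (1.59 to 2.05) and 1.98% (1.68 to 2.32) of the barcodes within the limits in the small intestine. In the large intestine the shares were 10.7% (9.93 to 11.5), 15.3% (14.3 to 16.3) and 15.7% (14.9 to 16.5). Without barcodes carrying other lineage markers, described next, the shares were 0.613, 1.03 and 1.11% in the small and 4.10, 9.91 and 7.88% in the large intestine, so that the colon lay above the rectum. The ranges of the regions did not overlap in either case, but the shares also depend on how many epithelial and stromal cells each dissociation released, and 3 libraries against 3 cannot give an exact two-sided permutation p below 0.1. All intervals cover counting error only.

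**Figure D1:**
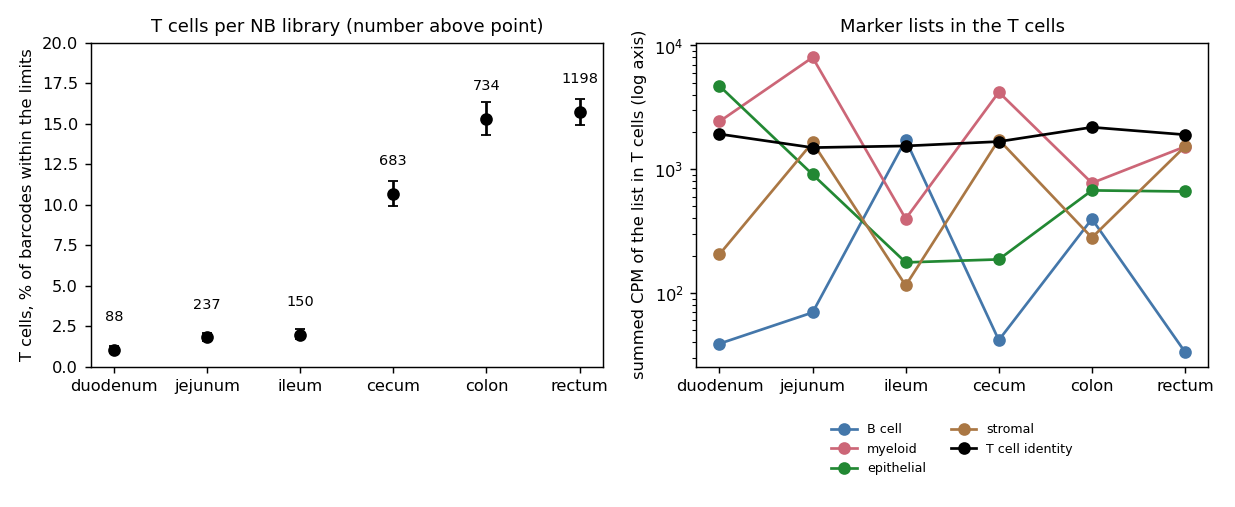
Left, T cells as a percentage of the barcodes within the limits in each of the 6 NB libraries, with 95% exact binomial intervals and the number of T cells above each point; right, the summed CPM (a gene's UMIs scaled to a common library total, log axis) of 5 marker lists over the T cells of each library. The T cell share was 1.04% to 1.98% in the small intestine and 10.7% to 15.7% in the large, while the B cell list stood highest in the ileum, the epithelial list in the duodenum and the myeloid list in the jejunum.

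The members were no uniform set. Their median depth ran from 3828 UMIs in the jejunum to 6706 in the cecum, and 562 of them had a single *CD3E* UMI. Among members with 1 *CD3E* UMI, *CD3D* was detected in 5.88% (colon) to 16.1% (jejunum), among those with 3 or more in 54.5% (duodenum) to 77.9% (rectum), and among barcodes with none in at most 0.607%. Of the members, 1480 carried at least 2 UMIs over 13 markers of B cells, plasma cells, macrophages, epithelium, stroma and endothelium, from 35.1% in the colon to 61.6% in the cecum. No barcode sequence was shared between members of different libraries, although 236 were shared among all barcodes within the limits. Values without the 1480 barcodes are given beside several results, and whether they are doublets, free RNA or true co-expression was not tested.

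Several genes besides *CD3E* marked these cells in every segment. Against barcodes without *CD3E* of the same library, 82 named genes, *CD3E* itself included, were at least 2-fold higher on the CPM + 10 scale in 6 of 6 libraries. With genes that carry no symbol the count was 99. No minimum level was set for these counts, and separately 3417 genes reached 50 CPM in a library. The comparison is a description, since the members were chosen by *CD3E*. The signalling chain *CD3D* stood at 229, 158, 164, 208, 228 and 259 CPM from duodenum to rectum, against 0.0996 to 1.06 CPM in the barcodes without *CD3E*. *CD7*, a surface glycoprotein of T and NK cells, lay between 135 and 389 CPM against at most 4.77. The zeta chain *CD247*, the kinases *ZAP70* and *LCK*, the adaptor *LAT* and the protease *CTSW* of cytotoxic cells were also among the 82 genes, so other T cell genes accompanied *CD3E* in all 6 libraries.

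The small and large intestine were then compared on the summed counts of the T cells, 3 segments against 3. Of 9722 genes tested with the quasi-likelihood test of edgeR, 0 passed a Benjamini-Hochberg adjusted p of 0.05 and the smallest adjusted p was 0.667 (percent called 0.0). At an unadjusted p below 0.05 there were 515 genes (5.3%), 265 higher in the large intestine (2.73%) and 250 higher in the small (2.57%). The DESeq2 Wald test on the same sums called 45 genes, 25 higher in the large intestine and 20 in the small. Segments are not replicates of a region and may share a calf, so these p-values measure only the spread between the segments, and in summed counts fewer expressing cells and less RNA per cell cannot be told apart. None of the genes named below passed the adjusted edgeR test unless that is stated. Those that DESeq2 called include *CCL5*, *ITGA1*, *HOXB9*, *DEFB7*, *PI3*, *S100A2*, *TSPAN1*, *REG3G*, *DHRS3*, *CD302*, *FASLG* and *EML5*.

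All 3 large intestinal libraries stood above all 3 small ones for 500 genes (5.14%), and the reverse held for 547 (5.63%). Among the 17 tested genes of the T cell identity list the counts were 5 and 0, with a median log2 fold change of 0.38 against -0.01 over all genes. The 5 were *CD5*, *CD6*, *LAT*, *SKAP1* and *FYB1*. *CD5*, a surface brake on receptor signalling, measured 23.8, 4.96 and 22.4 CPM in duodenum, jejunum and ileum against 53.6, 54.6 and 62.2 in cecum, colon and rectum (log2 fold change 1.90, SE 0.48, edgeR adjusted p = 0.808). *CD6*, a receptor of the same family, measured 10.8, 9.92 and 22.4 CPM against 39.3, 39.5 and 38.1 (log2 fold change 1.48, SE 0.33, edgeR adjusted p = 0.688). Without barcodes carrying other lineage markers the log2 fold change was 0.51 for *SKAP1* and 0.41 for *FYB1*, against 0.94 and 0.67 over all members. The whole list then summed to 2936, 2248 and 2534 CPM in the small and 2100, 2668 and 2165 CPM in the large intestine, against 1922, 1494, 1541, 1672, 2182 and 1900 CPM over all members, so that its sum did not lean to the large intestine. The adaptor *LAT* followed the same order, with 47.9 to 91.0 CPM in the small and 110 to 155 CPM in the large intestine. *CD3D* did not separate the regions, the duodenum lying at 229 CPM among the large intestinal values.

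*CD4* was the coreceptor whose levels over all members separated the regions. It measured 10.8, 25.6 and 40.6 CPM in duodenum, jejunum and ileum and 81.2, 44.3 and 118 CPM in cecum, colon and rectum (log2 fold change 1.64, SE 0.49, edgeR adjusted p = 0.808). The regions did not overlap, although ileum and colon lay close together, and without barcodes carrying other lineage markers the ileum at 73.5 CPM stood above the colon at 67.6. With every cell thinned to 1000 UMIs, a *CD4* UMI was found in 0, 0.847 and 3.42% of small intestinal T cells and in 7.07, 5.47 and 8.51% of large intestinal ones. The 0 rests on 87 duodenal cells, and 1, 1, 4, 4, 3 and 0 shallower cells were left out of the 6 libraries. Without barcodes carrying other lineage markers the thinned *CD4* shares were 1.96, 1.49 and 10.0% in the small and 8.46, 7.38 and 10.5% in the large intestine, so the ileum, with 8 of 80 cells, lay above cecum and colon and the regions overlapped. Unthinned over all members, the shares were 4.55, 7.59 and 10.7% against 22, 15.4 and 32.4%. Stromal barcodes, which should lack *CD4*, gave 0 to 0.337% after thinning, at median depths of 4001 to 7558.5 UMIs.

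*CD8A* and *CD8B*, the chains of the CD8 coreceptor, did not follow the region. *CD8A* measured 45.3, 58.7, 74.2, 56.3, 113 and 41.1 CPM from duodenum to rectum, so that the colon was highest and the rectum lowest. *CD8B* measured 43.2, 36.4, 58.8, 48.1, 109 and 29.8 CPM, in nearly the same order. The thinned share of cells with *CD8A* was 6.90, 8.05, 8.22, 6.33, 10.4 and 4.51%, against 0 in stromal barcodes of every library, of which 660, 2966, 426, 1262, 203 and 2158 were thinned. Unthinned, *CD8A* was detected in 14.8, 21.1, 19.3, 22.3, 30.0 and 14.1% and *CD8B* in 13.6, 10.1, 14.7, 17.9, 29.0 and 12.2%.

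Most members could not be placed by these 3 genes. Unthinned, none of *CD4*, *CD8A* and *CD8B* was detected in 77.3, 68.8, 64.0, 49.6, 48.0 and 49.5% of the T cells from duodenum to rectum. *CD4* without either CD8 chain was found in 29.7% of rectal and 2.27% of duodenal T cells, and both CD8 chains without *CD4* in 18% of colonic and 5.34% of rectal ones. Depth differs between the libraries, so a barcode without a UMI of these genes is not shown to lack them.

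**Figure D2:**
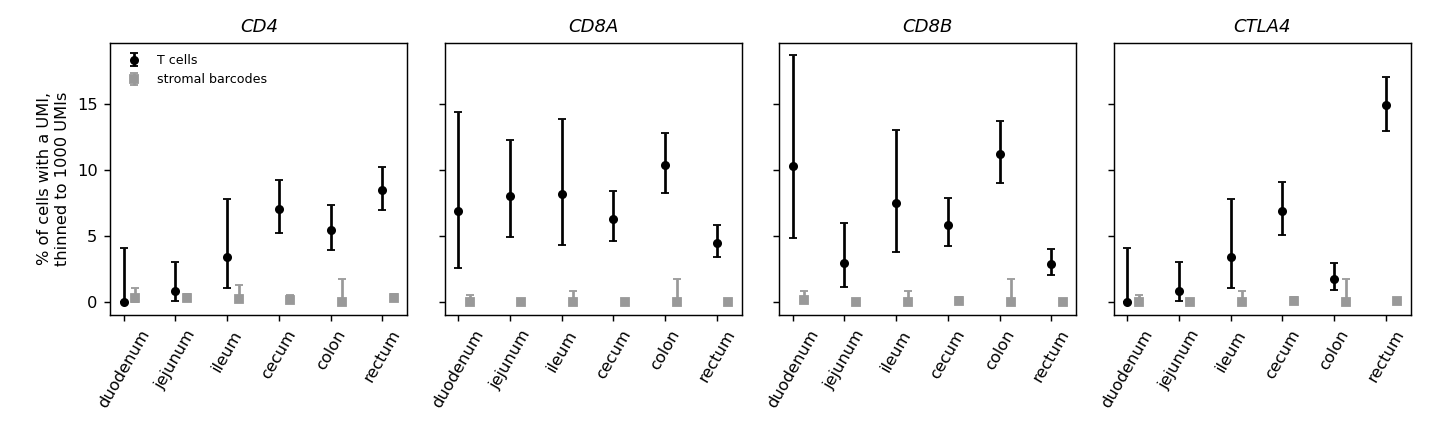
Percentage of T cells (black circles) and of stromal barcodes of the same library (grey squares) with a UMI of *CD4*, *CD8A*, *CD8B* or *CTLA4* after each was thinned to 1000 UMIs, in the 6 NB libraries, with 95% exact binomial intervals. *CD4* ran from 0% in the duodenum to 8.51% in the rectum and *CTLA4* reached 14.9% in the rectum, whereas *CD8A* and *CD8B* peaked in the colon at 10.4% and 11.2%.

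Genes of the cytotoxic program stood on average higher in the small intestine. Of 15 tested features 5 had an unadjusted p below 0.05, against 5.3% of all genes tested. All small intestinal values lay above all large ones for 3 of them (5.63% over all genes), and the reverse held for 0 (5.14%). The median log2 fold change was -0.69. *CCL5*, a chemokine of activated killer T cells, measured 842, 890 and 517 CPM in duodenum, jejunum and ileum and 262, 401 and 308 CPM in cecum, colon and rectum (log2 fold change -1.17, SE 0.28, edgeR adjusted p = 0.757). *FASLG*, the death ligand, measured 36.7, 62.0 and 51.8 CPM against 20.8, 13.6 and 18.3 (log2 fold change -1.51, SE 0.28, edgeR adjusted p = 0.667). *NKG7*, a cytotoxic granule membrane protein, measured 443, 577 and 354 CPM against 218, 313 and 214 (log2 fold change -0.84, SE 0.26, edgeR adjusted p = 0.808). The regions did not overlap for any of the 3 genes.

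Without the barcodes that carried other lineage markers the differences were larger. edgeR then called 6 of 6890 genes, 4 higher in the small intestine and 2 in the large. Among them were *FASLG* at a log2 fold change of -2.18 (edgeR adjusted p = 0.0287) and *CCL5* at -1.82 (edgeR adjusted p = 0.0454). The smallest adjusted p among them, 5.3e-05, was that of *REG3G*, an epithelial antimicrobial lectin gene, at -8.85. *FCER1G*, an Fc receptor signalling chain of NK-type and myeloid cells, was also called there at -1.57 (adjusted p = 0.0460). The barcodes set aside included 43 of the 49 rectal T cells with *KLRJ1*, described below. These 49 cells held 2579 CPM of *CCL5* and 1225 of *FCER1G*, against 210 and 91.7 in the other rectal T cells. Their part in these differences was not tested. DESeq2 called *FASLG* (adjusted p = 0.0046) and *CCL5* (adjusted p = 0.039) on all members as well. At smaller adjusted p it called *REG3G* (4.9e-11), *PI3* (1.7e-06) and *DEFB7* (1.1e-05), which in no library stood above the barcodes without *CD3E*. The thinned share of T cells with *CCL5* was 33.3, 28.4 and 19.2% in the small and 14.9, 21.3 and 17.1% in the large intestine, so that the ileum and colon overlapped, while stromal barcodes gave at most 0.475%. Unthinned, the shares were 44.3, 42.6, 26.0, 29.1, 32.4 and 30.4%.

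Other killing genes overlapped between the regions over all members. The chemokine *XCL1* measured 298 CPM in the jejunum, where 78 of 237 T cells had it, against 97.2 CPM in the duodenum and 48.6 to 72.4 CPM elsewhere. Without barcodes carrying other lineage markers it was 557 CPM in the jejunum, 223 in the duodenum, 154 in the ileum and 63.8 to 87.9 in the large intestine, and the regions did not overlap. *CTSW* was high from duodenum to ileum (555, 860 and 860 CPM) and in the colon (781 CPM) but lower in cecum (340 CPM) and rectum (252 CPM). *GZMA*, a granzyme, was highest in cecum and rectum, with 63.3 and 95.6 CPM against 8.40 in the ileum and 3.95 in the colon. Duodenum and jejunum lay between, on 11 and 35 UMIs. The ileal value was 6 UMIs, 5 of them in 1 cell, and the colonic value 18 UMIs in 9 cells. Perforin, *PRF1*, was highest in the duodenum at 62.6 CPM and lay between 16.8 and 28.1 CPM elsewhere. Of the 2 features named *GZMB*, one followed *GZMA* (66.9, 39.7, 4.2, 93.2, 2.41 and 93.3 CPM) and the other was also present at up to 395 CPM in barcodes without *CD3E*, so its T cell level is uncertain.

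**Figure D3:**
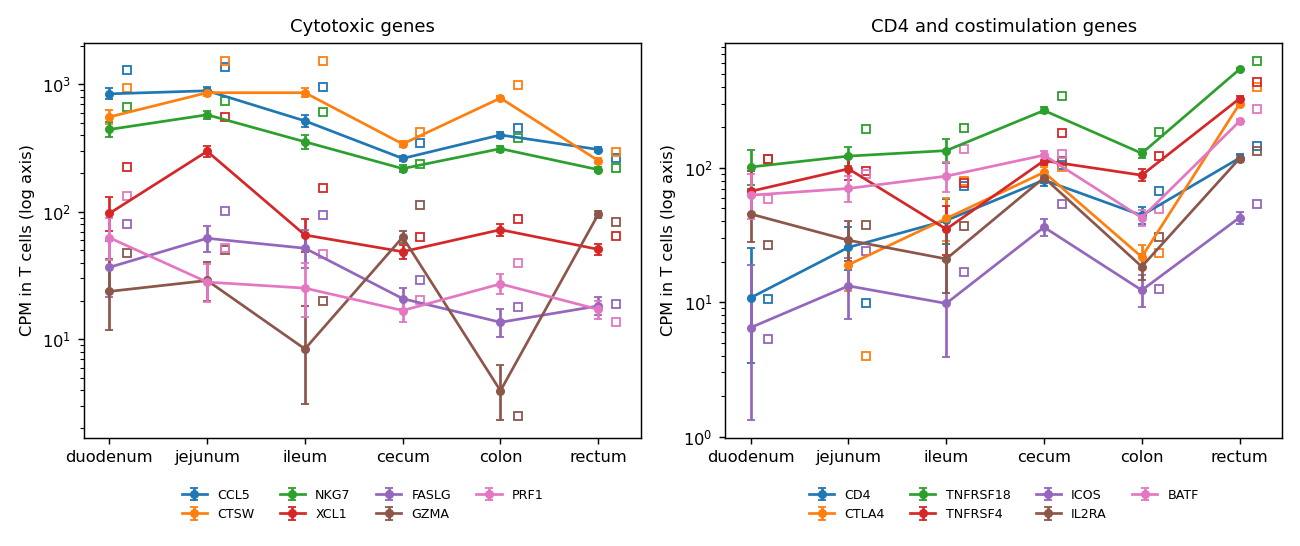
CPM (log axis) of 7 cytotoxic genes (left) and of *CD4* and 6 costimulation-related genes (right) in the summed T cells of the 6 NB libraries, with 95% Poisson intervals; open squares leave out T cells with other lineage markers, and values of 0 are not drawn. *CCL5*, *NKG7* and *FASLG* lay higher in the 3 small intestinal segments, and *CTLA4*, *TNFRSF4* and *TNFRSF18* were highest in the rectum.

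Costimulation and checkpoint genes stood higher in cecum and rectum. Of 12 tested genes 4 had an unadjusted p below 0.05, against 5.3% of all genes tested, and the median log2 fold change was 1.29. For none of the 12 did all large intestinal values lie above all small ones (5.14% over all genes). The summed level of the list was 326, 517 and 462 CPM in the small intestine and 951, 427 and 1669 CPM in cecum, colon and rectum, the colon being within the small intestinal range. *CTLA4*, a brake on T cell costimulation, measured 0, 19.0, 42.0, 92.7, 21.7 and 299 CPM from duodenum to rectum (log2 fold change 2.70, SE 1.10, edgeR adjusted p = 0.808). Without the rectum its log2 fold change was 1.42 and without the ileum 3.55, so the size of the difference rests on single libraries. The costimulatory receptor *TNFRSF4* (OX40) measured 66.9, 98.4, 35.0, 113, 88.2 and 328 CPM, and its relative *TNFRSF18* (GITR) 101, 122, 134, 267, 128 and 542 CPM. *ICOS*, another costimulatory receptor, measured 6.48, 13.2, 9.80, 36.2, 12.3 and 42.7 CPM.

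The rectal level of *CTLA4* was spread over many cells. It was detected in 399 of 1198 rectal T cells, and the cell with the most UMIs held 1.43% of them. After thinning, 14.9% (95% exact binomial interval 13.0 to 17.1) of rectal, 6.92% of cecal and 1.78% of colonic T cells had a *CTLA4* UMI, against 0 to 0.0927% of stromal barcodes. Unthinned, these were 33.3, 19.2 and 3.13%. Duodenal barcodes without *CD3E* held 6.73 CPM of it, although in the duodenum it was found in 0 of 88 T cells, which allows a share of up to 4.11% with a UMI by the exact interval and sets no limit on cells that express the gene. Of the 11 rectal barcodes left out for *FOXP3* alone, 72.7% had *CTLA4*, and since *FOXP3* was detected in only 12 of the 1347 rectal barcodes with *CD3E*, a member without its UMI is not shown to lack it.

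The genes found beside *CTLA4* in the same T cells were compared in cecum (131 cells), colon (23) and rectum (399). *CD4* measured 209, 367 and 221 CPM in the cells with *CTLA4* and 33.2, 34.2 and 36.0 CPM in those without. *TNFRSF4* measured 310, 1635 and 636 CPM against 39.3, 39.6 and 80.5, and *IL2RA*, the high-affinity interleukin 2 receptor chain, 180, 288 and 203 CPM against 48.6, 9.96 and 48.8. The transcription factor *BATF* and the chemokine receptor *CCR4* were also higher with *CTLA4* in all 3 libraries, *BATF* at 247, 461 and 381 CPM against 78.0, 29.4 and 95. Among the cytotoxic genes, *CTSW* and *CCL5* were lower in these cells in all 3 libraries, with *CTSW* at 36.1, 21.6 and 28.6 CPM against 455, 804 and 432, and *CCL5* at 50.8, 36.0 and 43.6 CPM against 342, 412 and 520. *GNLY* was higher in them, at 242, 166 and 71 CPM against 29.2, 8.82 and 29.5. *GZMA* was higher in cecum and rectum, at 141 and 159 CPM against 34 and 44.3, but not in the colon, where all T cells held 18 UMIs of it.

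Depth and cell division moved with *CTLA4*. The median depth was 10929 UMIs with and 6030.5 without *CTLA4* in the cecum and 9191 against 4696 in the rectum, but 4682 against 5055 in the colon. *MKI67*, a marker of cycling cells, measured 411, 317 and 464 CPM with and 148, 94.6 and 97.4 CPM without. At least 2 other lineage UMIs were carried by 59.5, 30.4 and 42.6% of the cells with *CTLA4*, against 62.1, 35.3 and 53.4% of those without. The part of depth in these differences was not tested.

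**Figure D4:**
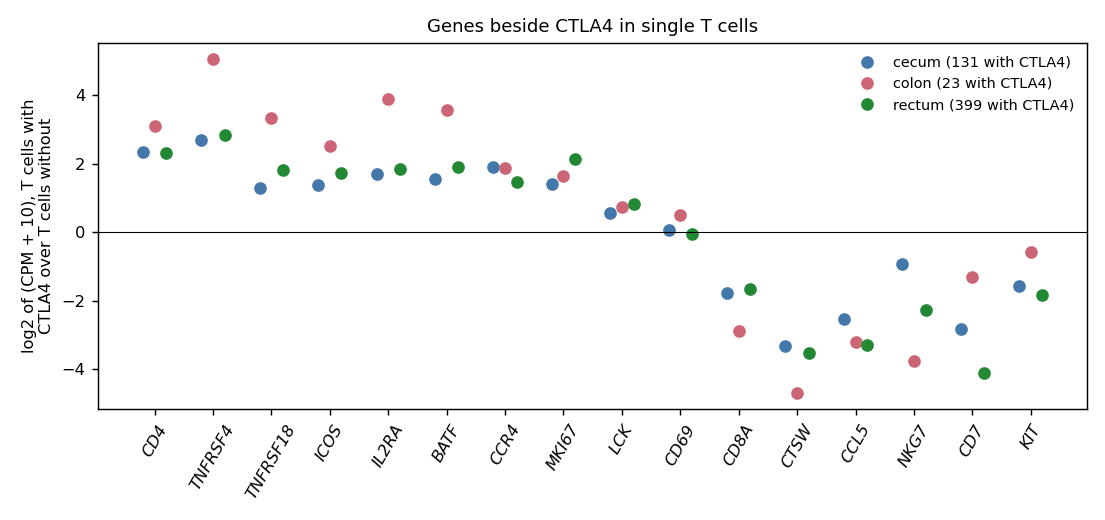
Log2 ratio of CPM + 10 between T cells with and without a *CTLA4* UMI, for 16 genes, in NB cecum (131 cells with *CTLA4*), colon (23) and rectum (399); 0 is an equal level. In all 3 libraries *CD4*, *TNFRSF4*, *TNFRSF18*, *ICOS*, *IL2RA*, *BATF* and *CCR4* lay above 0, and *CD8A*, *CTSW*, *CCL5*, *NKG7*, *CD7* and *KIT* below.

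T cells with *CD8B* held more *CTSW* and *CCL5*, while other cytotoxic genes varied. In jejunum, ileum, cecum, colon and rectum (24, 22, 122, 213 and 146 cells), *CTSW* measured 1862, 2003, 586, 1119 and 511 CPM with *CD8B* and 748, 648, 288, 650 and 216 CPM without. *CCL5* was likewise higher with *CD8B* in 5 of 5 libraries, from 441 against 290 CPM in the rectum to 1944 against 773 in the jejunum. *GZMA* measured 165, 247 and 382 CPM with *CD8B* in jejunum, cecum and rectum against 13.8, 23.8 and 55.5 without, but in the colon 1.57 against 4.87 CPM. All jejunal T cells together held only 35 *GZMA* UMIs and all colonic ones 18. *FASLG* was lower with *CD8B* in jejunum (33 against 65.2 CPM) and ileum (18 against 58 CPM). All T cells of jejunum and ileum held 75 and 37 *FASLG* UMIs, so these contrasts rest on few counts. *CTLA4* measured 58.9 and 148 CPM with *CD8B* in cecum and rectum against 100 and 321 without. *CD79A*, a B cell receptor chain, was found in 33.3, 50, 21.3, 36.2 and 28.8% of the cells with *CD8B* from jejunum to rectum. Other B cell genes were rarer in these cells, *CD79B* at 0, 9.09, 3.28, 5.63 and 2.74% and *MS4A1* at 0, 13.6, 0.820, 2.35 and 0%. The stromal gene *COL3A1* was found in 12.5, 4.55, 49.2, 4.23 and 44.5%. At least 2 other lineage UMIs were found in 37.5, 36.4, 55.7, 30 and 49.3% of those with and 43.7, 45.3, 62.9, 37.2 and 49.9% of those without. The part of *CD79A* in these differences was not tested.

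T cells with *KIT*, a receptor tyrosine kinase, held more *CTSW* and *CD7* than those without in duodenum, jejunum, cecum, colon and rectum. *CTSW* measured 680, 1598, 655, 1395 and 605 CPM with *KIT* in these 5 libraries against 492, 675, 220, 620 and 202 without. *CD7* measured 447, 347, 258, 529 and 346 CPM against 360, 204, 87.6, 304 and 143. *CCR7*, the lymph node homing receptor, measured 30.3, 18 and 44.5 CPM with *KIT* in cecum, colon and rectum against 78.7, 104 and 80.7 without, and duodenum and jejunum held too few of its UMIs, 1 and 3, to compare. The T cells with *KIT* had *CD79A* in 11.1, 21.7, 17.4, 33.1 and 18%, *EPCAM* in 29.6, 8.70, 7.73, 10.8 and 15.6% and *C1QA* in 22.2, 32.6, 20.8, 5.41 and 5.39% of cells in the 5 libraries. The stromal gene *COL3A1* was found in 7.41, 10.9, 48.8, 5.41 and 43.7% of them. The B cell genes *CD79B* and *MS4A1* were found in at most 6.08 and 4.73%. At least 2 other lineage UMIs were carried by 44.4, 32.6, 60.9, 34.5 and 47.9% of those with *KIT* and 39.3, 45.6, 62, 35.3 and 50.1% of those without, and their part was not tested. The ileum had too few T cells with *KIT* for this comparison, which required 20.

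*CCR7* itself was nearly missing from the upper small intestine. It measured 2.16 and 2.48 CPM in duodenum and jejunum against 53.2, 65.3, 86.4 and 76.2 CPM from ileum to rectum. Barcodes without *CD3E* held 0.754 and 5.81 CPM of *CCR7* in the first pair and 29.5 to 60.2 CPM in the other 4 libraries, so the same step was seen outside the T cells. The thinned share with *CCR7* was 0% in duodenum and jejunum and 4.79, 4.57, 8.07 and 4.92% from ileum to rectum, against at most 0.469% of stromal barcodes. Unthinned, it was 1.14, 1.27, 10.7, 16.1, 19.5 and 20.2%. The log2 fold change of *CCR7* was 2.01 (edgeR adjusted p = 0.808). Without the ileum it was 5.04 (adjusted p = 0.0200), and without each other library in turn it was 1.37 to 2.09 and not called.

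The colon was the segment with most *TCF7*, a factor of naive and memory T cells, at 277 CPM against 65.3 to 146 elsewhere. It also led in *LEF1*, the partner of *TCF7*, at 36.6 CPM against 6.61 to 24.7, and in *SATB1*, a chromatin organiser, at 59.2 CPM against 30.2 to 40.6. Of the 12 tested genes of the naive and recirculating list none had an unadjusted p below 0.05 (5.3% over all genes). All large intestinal values lay above all small ones for 2 of the 12, against 5.14% of all genes tested. The colon was also where 100 barcodes were left out for 2 or more thymic genes and 73 members kept 1 of them.

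Of the 13 tested tissue residence genes 1 had an unadjusted p below 0.05, against 5.3% of all genes tested. *CD69*, which holds T cells in tissue, measured 285 to 603 CPM, highest in the ileum. *RGS1*, a damper of chemokine signals, measured 594 to 1428 CPM, highest in the jejunum, and *ITGAE*, the epithelial binding integrin chain, 8.04 to 24.1 CPM. *ITGA1* had an unadjusted p of 0.00185 in edgeR (adjusted p = 0.687), but barcodes without *CD3E* held more of it in every library and its T cell level is uncertain. Of 10 tested homing genes only *CCR4* had an unadjusted p below 0.05 (5.3% over all genes). *CXCR4*, a receptor for stromal chemokine, was highest in the ileum at 953 CPM and lowest in the duodenum at 253. *CCR9*, which guides cells to the small intestine, measured 49.7, 12.4, 12.6, 34.6, 35.1 and 27.2 CPM and did not separate the regions.

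Among the NK-type receptor genes, *KLRJ1*, a C-type lectin receptor gene, came from few cells at a high level. It measured 341, 32.2, 0, 53.9, 107 and 226 CPM from duodenum to rectum, yet was found in only 4, 3, 0, 8, 8 and 49 T cells. In the rectum these 49 cells, 4.09% of the T cells, held 2007 UMIs, none of them more than 6.43% of the total, and *KLRJ1* stood at 0.496 CPM in rectal barcodes without *CD3E*. The ileum had 0 of 150 T cells, which allows a share of up to 2.43% with a UMI by the exact interval and sets no limit on cells that express the gene.

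The rectal T cells with *KLRJ1* carried a distinct set of genes, looked at after their values were seen. *CD3D* was found in 47 of 49 (95.9%, against 64.4% of the other rectal T cells), *CD7* in 44 (89.8% against 28.6%) and *CD96*, a receptor of T and NK cells, in 45 (91.8% against 20.0%). *FCER1G* was found in 41 (83.7% against 15.1%) and *CCL5* in 44 (89.8% against 27.9%). *CTLA4* was found in 0 and *CD4* in 2. *CTSW* was found in only 2 (4.08% against 26.8%).

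Most of these genes were also found in the other libraries, which were not held out when *KLRJ1* was picked. In their 23 T cells with *KLRJ1*, *CD7* was found in 23, *CCL5* in 22 and *CD3D*, *CD96* and *NKG7* in 21 each. *FCER1G* was found in 20, while *CTLA4* and *CD4* were found in 0. *JCHAIN*, the joining chain of secreted antibodies, was found in 35 of the 49 rectal cells (71.4% against 3.92% of other rectal T cells) and in 13 of the 23. In the cecum it was found in 2 of 8 (25% against 18.7% of other cecal T cells), and *MZB1*, a gene of plasma cells, was found in 0 of either. *JCHAIN* was among the 13 markers used to leave barcodes out, and 43 of the 49 had at least 2 UMIs of these, so the rectal level of *KLRJ1* was 37.5 CPM without them. The median depth of the 49 cells was 6950 UMIs, against 5757.5 of all rectal T cells. In duodenum, jejunum, cecum and colon the cells with *KLRJ1* had medians of 4925, 2389, 8357.5 and 14404 UMIs. All T cells there had 4004, 3828, 6706 and 5035.5. These detections are unthinned, and the part of depth in them was not tested. Among other T cells of the 4 libraries *CD7* was found in 36.1 to 51.9% and *CCL5* in 28.3 to 41.9%. The gene models of *KLRJ1* and *JCHAIN* were not checked here.

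**Figure D5:**
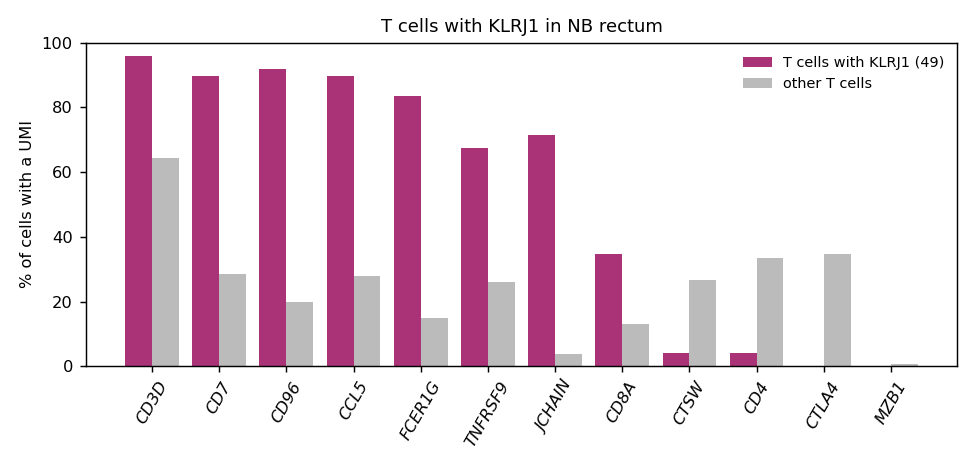
Percentage of NB rectal T cells with a UMI of 12 genes, unthinned, for the 49 cells with *KLRJ1* (purple) and the other 1149 (grey). *CD7*, *CD96*, *CCL5*, *FCER1G* and *JCHAIN* were found in 71.4% to 91.8% of the cells with *KLRJ1* and in 3.92% to 28.6% of the others, and *CTLA4*, *CD4* and *CTSW* in at most 4.08% against 26.8% to 34.7%.

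Barcodes with 2 or more UMIs of the interleukin 17 and 22 genes, 321 in all, had been left out by the rule, so the cytokine levels of the members are partly set by it. None of the 12 tested cytokine and helper genes had an unadjusted p below 0.05. *IFNG*, in the cytotoxic list, measured 28.1, 70.3, 46.2, 47.4, 29.8 and 41.5 CPM, against 0.161 to 2.02 CPM in barcodes without *CD3E*, and its regions overlapped. *BATF* followed the costimulation genes, with 222 CPM in the rectum, 124 in the cecum and 42.6 to 86.8 elsewhere. The type 2 cytokines *IL4* and *IL13* were highest in the colon at 12.5 and 18.6 CPM, but 1 cell held 56 of the 57 *IL4* UMIs and 1 cell 77 of the 85 *IL13* UMIs. *IL5* was at 0 in all 6 libraries.

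Cell division genes were highest in cecum and rectum once barcodes with other lineage markers were set aside. The 20 genes of the cell division list summed to 1106, 1190, 3578, 3017, 1983 and 3002 CPM from duodenum to rectum, and to 1051, 1150, 846, 2894, 1466 and 3289 CPM without barcodes carrying other lineage markers. The ileum thus moved from the highest sum to the lowest. In the 31 ileal members with *MKI67*, the B cell genes *MS4A1* and *VPREB3* measured 406 and 925 CPM against 116 and 665 CPM in those without, and *CD3D* 47.5 against 219 CPM. Of these 31, 26 had at least 2 other lineage UMIs (83.9%, against 33.6% of those without), and 74.2% had *MS4A1*. In cecum and rectum, T cells with *MKI67* had 149 and 182 CPM of *CD4* against 41.2 and 71.5 without. There 66.7 and 53.1% of those with *MKI67* had at least 2 other lineage UMIs, against 59.9 and 48.5% without. By edgeR 1 of the 20 genes had an unadjusted p below 0.05, against 5.3% of all genes tested.

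Interferon-stimulated genes were highest in rectum, cecum and ileum, but were not particular to T cells. The list summed to 382, 842, 1096, 1506, 429 and 1673 CPM in the T cells and to 311, 773, 832, 2023, 336 and 2976 CPM in barcodes without *CD3E*. Both kinds of barcode had their lowest sums in duodenum and colon and highest in cecum and rectum. Of 19 tested genes 2 had an unadjusted p below 0.05, against 5.3% of all genes tested.

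The 7 GTPase features of the GIMAP family, which support lymphocyte survival, did not separate the regions over all members. They summed to 1503, 1532, 1466, 1301, 1794 and 1184 CPM, against 8.53 to 130 CPM in barcodes without *CD3E*, and none had an unadjusted p below 0.05. Without barcodes carrying other lineage markers they summed to 2644, 2531 and 2233 CPM in the small and 1685, 2233 and 1396 CPM in the large intestine. The gamma delta list was mostly out of reach, since 8 of its 16 symbols were listed and 4 features were tested. Features of the *WC1* family of gamma delta coreceptors measured at most 9.87 CPM, and *CD163L1*, a relative of it, was highest in the ileum at 18.2 CPM against 1.10 to 4.32 elsewhere. *SOX4* and *ID3*, also in this list, measured 68.9 to 127 and 143 to 283 CPM in barcodes without *CD3E*, so their T cell levels of 51.8 to 127 and 108 to 263 CPM are uncertain.

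Among the genes highest in a single small intestinal segment, the leading ones included known genes of other cell types. At 50 CPM or more and at least 2-fold above each other segment there were 67 genes in the duodenum (2.74%), 103 in the jejunum (4.22%), 48 in the ileum (1.97%), 1 in the cecum (0.0406%), 5 in the colon (0.224%) and 7 in the rectum (0.28%). The leading duodenal genes were *FABP2*, *S100G*, *GUCA2B*, *RBP2* and *APOC3*, all enterocyte genes, and 1 cell held 72.7% of the *FABP2* UMIs. The jejunal genes *PLA2G2A*, *LYSB*, *CCL2*, *RAMP1* and *CLEC4G* included secreted epithelial and myeloid products, and 1 cell held 83.4% of the *PLA2G2A* UMIs. The ileal genes *VPREB3*, *RGS13*, *ELL3* and *FCRLA* are B lineage genes, and *CCL20*, a chemokine also among the leading 5, came almost wholly from 1 cell. Cecum led in *CST3*, colon in *CHGA* (2010 of 2031 UMIs in 1 cell), *TFF2* and the rule gene *DNTT*, and rectum in *S100A12*, *FUT6*, *CTLA4*, *TNFRSF4* and *WFDC18*.

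Marker lists of other lineages stood at uneven levels in the members of the segments. The B cell list summed to 1725 CPM in ileal T cells and 33.3 to 396 elsewhere, and the epithelial list to 4708 CPM in the duodenum and 176 to 907 elsewhere. The myeloid list ran from 398 CPM in the ileum to 8007 in the jejunum, and the stromal list from 115 in the ileum to 1731 in the cecum. With the further condition, added after the data were seen, that a gene be at least 2-fold above barcodes without *CD3E*, the counts were 4, 2, 3, 0, 3 and 3 from duodenum to rectum, the colonic 3 including the rule gene *DNTT*. Several rested on 1 cell, which held all 34 UMIs of *HES5* in the duodenum, 110 of 134 of *CCL1* and 40 of 41 of *CCL20* in the ileum, and nearly all *CHGA* UMIs in the colon. Spread over more cells were *XCL1* in the jejunum and *CTLA4* and *TNFRSF4* in the rectum, where *TNFRSF25* was also counted.

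The leading genes of the region comparison were also found in barcodes without *CD3E*. The 5 with the smallest p that were higher in the large intestine were *HOXB9*, *DEFB7*, *PI3*, *S100A2* and *TSPAN1*. *HOXB9*, a position gene of the hind gut, measured 0, 0.827 and 0 CPM against 10.2, 21.5 and 28.8 (log2 fold change 5.53, SE 0.89), but rectal barcodes without *CD3E* held 92.0 CPM. The antimicrobial lectin *REG3G* led the small intestine at 1155, 4024 and 102 CPM against 0.183, 0.219 and 0, with 2997 to 4874 CPM in small intestinal barcodes without *CD3E*. *DHRS3*, *CD302*, *FASLG* and *EML5* followed it, and of these 10 genes *FASLG* alone was higher in the T cells than in barcodes without *CD3E* in all 6 libraries.

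Across 3417 genes the T cell profiles were most alike in cecum and rectum, with a Spearman coefficient of 0.936, and least alike in jejunum and ileum, with 0.668. Without the barcodes carrying other lineage markers the coefficients ran from 0.771 (duodenum and rectum) to 0.958 (cecum and rectum). Genes are not independent replicates, and the members of a library share its dissociation and free RNA.

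The same rule found 5077 barcodes in NB liver and 7259, 4248, 8100 and 8029 in AD duodenum, jejunum, cecum and colon. Stage, animal and dissociation differ together between NB and AD libraries and cannot be told apart, so the values are set side by side with no test. *CD3D* measured 541, 571, 831 and 903 CPM in the AD libraries against 158 to 259 CPM in the NB intestine and 147 CPM in NB liver. The rule did not select alike: members with a single *CD3E* UMI were 16.2% (colon) to 27.3% (ileum) in the NB intestine. In the AD libraries they were 2.83% (cecum) to 13.9% (jejunum). The part of this in the differences between NB and AD levels was not tested. *CCL5* measured 2336 to 9322 CPM in the AD libraries and 262 to 890 in the NB ones, and *GNLY*, a granule protein, 156 to 1391 CPM against 13.6 to 123. *CTSW* ran the other way, at 133 to 269 CPM in AD T cells, 252 to 860 in the NB intestine and 1087 in NB liver. *CXCR4* was likewise higher in the NB intestine, at 253 to 953 CPM against 30.5 to 127. *CTLA4* in the NB rectum, at 299 CPM, lay above all 4 AD libraries (16.2 to 48.5 CPM), which include no rectum. In the NB segments that have an AD library, *CTLA4* was 92.7 CPM in the cecum and 0 in the duodenum. In NB jejunum and colon it lay within the AD range. *KLRJ1* reached 544 and 486 CPM in AD cecum and colon.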

How the data were processed

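Barcodes of the 6 NB intestinal libraries were analysed, with NB liver and 4 AD intestinal libraries for comparison. The authors deposited filtered matrices of raw UMI counts per gene and barcode, made with Cell Ranger 3.1.0 according to the submitters' processing notes, from the 10x 3′ chemistry. How reads shared by paralogs or overlapping genes were counted is not given in the sources used here, so features with 1 name, such as the *GZMB* pair, may split reads. The 6 NB intestinal libraries held 62529511 to 117505536 UMIs each. The members and gene lists were chosen with earlier results of these data known.

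CPM is the summed UMIs of a gene over those of all members of a library, with exact Poisson intervals. Shares used cells thinned without replacement to 1000 UMIs (seed 1), with exact binomial intervals at 95%. Stromal barcodes had at least 2 UMIs of *COL1A2* and none of *CD3E* or *PTPRC*. Regions were compared on UMI sums per library with edgeR 4.0.16 (TMM, filterByExpr, quasi-likelihood test, R 4.3.3), with DESeq2 1.42.0 as an alternative. Samples are groups of 1 library, so the 3 segments of a region served as its units. Barcodes within the limits were ranked by their Scrublet score (scanpy 1.11.5). In each library a preset share with the highest scores, 0.8% per 1000 barcodes, was taken as doublets. This marked 173 members, which were kept except in an alternative. In simulated counts over 9409 genes the test called 71 of 92 genes changed 4-fold and 91 of 91 changed 16-fold, with 4 false calls. These counts were drawn at 1 common dispersion, 0.118, with the same mean share in every library apart from the set changes. In the real counts *REG3G*, at a log2 fold change of -13.5, was not called. The simulation therefore does not measure what the test could find between these segments.

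Named genes were those of the lists, the 10 leading genes called in each direction between regions or, as here with none called, the 5 with the smallest p, the 5 largest ratios per segment among genes at 50 CPM or more and at least 2-fold above each other segment, and the genes of the rule. *KLRJ1* cells were examined after their values were seen. In the files 7540 genes carry no symbol and were counted but not named. NB reticulum, omasum, abomasum and salivary gland were counted and not used further. The levels of some listed genes are not reported here.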

Additional observations from a re-analysis of the deposited data

Results flagged for a closer look

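In 10 of 76 listed genes that reached 50 CPM in a library, 1 library lay far from the other 5 by Dixon's criterion. Chance meets this criterion in about 1 in 20 groups of samples not selected on their values. *IL1RL1*, *PRF1* and *SATB1* reached 50 CPM only in the library that stood out. The rate therefore does not apply to the 76 genes, and 10 of 76 is not shown to be more than chance gives. The libraries are different segments and not replicates, so a distant value can be the segment or the library. The rectum stood out in *CTLA4* (299.0 CPM, next 92.7 in the cecum) and *TNFRSF4* (328.0 CPM, next 113.0). The duodenum stood out in *PRF1* (62.6 CPM, next 28.1). The jejunum stood out in *XCL1* (298.0 CPM, next 97.2), *IL1RL1* (55.4 CPM, next 10.8) and *TYROBP* (319.0 CPM, next 120.0). The colon stood out in *CD8B* (109.0 CPM, next 58.8), *TRAT1* (88.4 CPM, next 56.1) and *SATB1* (59.2 CPM, next 40.6), and was lowest in *IL2RB* (88.4 CPM, next 113.0). Without T cells carrying other lineage markers the jejunal *IL1RL1* and *TYROBP* levels were 5.97 and 95.5 CPM.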

How the results depend on the processing

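The count of genes by region, 0 with edgeR, stayed at 0 with DESeq2 size factors and without doublets, barcodes of 40% or more mitochondrial UMIs, or barcodes with any thymic gene. It was 45 with the DESeq2 Wald test, 1 with no filter, 1 with at least 2 UMIs over the CD3 genes and 6 without barcodes carrying other lineage markers. Leaving out 1 library at a time gave 0 to 2, with 2 (*CCR7*, *REG3G*) without the ileum and 1 (*PRSS2*) without the colon. Of 438 alternative values for 32 named genes 4 turned direction. *CD8A* became -0.32 without the colon and -0.26 without barcodes carrying other lineage markers on the log2 scale, and *CD8B* -0.26 and -0.13. Over the libraries left out in turn, *CD8A* ran from -0.32 to 0.54 (without the rectum) and *CD8B* from -0.26 to 0.81.

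The thinned share differences, large minus small intestine, were 5.59 percentage points for *CD4*, -0.64 for *CD8A* and -0.27 for *CD8B*. Without thinning they were 15.6, 3.71 and 6.88, and at 2000 UMIs *CD8A* gave 3.15 and *CD8B* 3.85. Genes highest in 1 segment numbered 31, 11, 8 and 2 in duodenum, jejunum, ileum and cecum without barcodes carrying other lineage markers, and, in the condition added after seeing the data, 4, 2, 3, 0, 3 and 3 from duodenum to rectum, with the rule gene *DNTT* among the colonic 3. The causes were not tested. Low depth and 88 to 237 small intestinal cells limit every share there. No paired analysis was possible because each segment is 1 library and no animal is named for it in the sources used here.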
